A study of Mus musculus with 6 samples.

Results

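Fibroblast growth factor (FGF) ligand and receptor genes were followed in cultured smooth muscle cells of the mouse pulmonary artery (PASMCs), which contract the vessel wall, after exposure to bone morphogenetic proteins. The 9 genes were chosen by name and matched to the deposited rows by Ensembl identifier: the ligand genes Fgf1, Fgf2, Fgf7, Fgf10 and Fgf18, and the receptor genes Fgfr1, Fgfr2, Fgfr3 and Fgfrl1. All 9 were among the 21785 rows, and all 9 were among the 21743 genes tested. The stimulated group was 3 samples given BMP9 at 1 ng/mL together with BMP10 at 5 ng/mL for 6 h, and the control group was 3 samples without these ligands. Both groups came from C57BL/6 mice, were grown out from iron-filled lung vessels and were kept for 48 h without medium supplements before stimulation. No animal age and no pooling of animals is given in the labels, nor whether replicates came from separate cultures, and the p-values therefore reflect sample-to-sample spread alone, which may be technical.

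FGFs are secreted signals that bind receptor tyrosine kinases together with heparan sulfate chains on the cell surface and pass the signal on through adaptor proteins, RAS and the ERK kinases. In the lung, mesenchymal cells make FGF7 and FGF10, which act on an epithelial splice form of FGFR2, while FGF2 is known as a growth signal for smooth muscle cells. FGFRL1 resembles the other receptors outside the cell but lacks the tyrosine kinase domain. Gene-level values do not separate the splice forms of a receptor.

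Sequence before the RefSeq start is shown for the 3 genes that rose and for Fgf10, which fell; Fgf1, which also fell, is not shown. Sequences are from RefSeq on GRCm38.p6, for which 7 of the 9 genes had an entry. Each is written 5′ to 3′ on the gene's strand and covers the 250 bases before the RefSeq start, except for Fgf2, where 30 bases around its GC-rich site are given. The RefSeq starts are not always the outermost annotated ones: in GENCODE M21 the Fgf2 window, its GC-rich site included, lies wholly within an exon (250 of 250 bases), and the Fgfrl1 and Fgf10 windows lie downstream of the gene's outermost start, outside its exons. Capitals mark the motifs found on either strand: GGCGCC, a GC-rich site bound by BMP-activated SMADs, and CAGAC or its reverse complement GTCTG, a SMAD-binding element; the AP-1 motif TGANTCA was searched as well, and none of these motifs overlapped another in the windows shown.
Fgf2, chr3:37348561-37348590, plus strand: ttgcaacttggaGGCGCCgggcgtggggag
Fgf18, chr11:33147401-33147650, minus strand: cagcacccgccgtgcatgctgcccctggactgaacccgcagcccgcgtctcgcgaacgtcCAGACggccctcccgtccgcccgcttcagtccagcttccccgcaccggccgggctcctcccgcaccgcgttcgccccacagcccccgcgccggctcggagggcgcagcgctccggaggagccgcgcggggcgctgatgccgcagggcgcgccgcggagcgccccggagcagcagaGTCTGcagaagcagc
Fgfrl1, chr5:108693979-108694228, plus strand: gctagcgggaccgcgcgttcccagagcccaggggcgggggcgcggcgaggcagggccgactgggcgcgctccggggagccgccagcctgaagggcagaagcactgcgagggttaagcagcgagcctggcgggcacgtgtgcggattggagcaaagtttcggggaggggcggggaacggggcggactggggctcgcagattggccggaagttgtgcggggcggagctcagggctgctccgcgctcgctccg
Fgf10, chr13:118714449-118714698, plus strand: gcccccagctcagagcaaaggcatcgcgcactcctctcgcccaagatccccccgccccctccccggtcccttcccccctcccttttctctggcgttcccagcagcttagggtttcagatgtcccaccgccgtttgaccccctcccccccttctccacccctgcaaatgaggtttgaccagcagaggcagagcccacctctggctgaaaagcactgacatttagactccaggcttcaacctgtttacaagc

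The GGCGCC site of Fgf2 began 80 bases before the RefSeq start, and its 250-base window also held a CAGAC site 205 bases before it. The Fgf18 window held 2 such sites, 190 and 15 bases before the start. The Fgfrl1 and Fgf10 windows held none of the 3 motifs, and neither did that of Fgfr2. Genes that did not pass the test held motifs too: GGCGCC stood 65 and 123 bases before the start in the 2 Fgfr3 windows, 1 in each, and GTCTG stood 201 bases before the start of Fgf7. Over 32851 windows of the same length, 9.59% held GGCGCC, 42.2% held CAGAC or GTCTG and 6.75% held TGANTCA, so the CAGAC motif is frequent by its letters alone. These matches describe the sequence and are not evidence of binding.

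The deposited values are normalized read counts, and library totals were between 27295973 and 31903795. Step sizes among low values put the sequenced depth (in M reads) near 23.3, 28.0 and 54.4 for stimulated replicates 1, 2 and 3, and near 26.4 and 27.3 for control replicates 1 and 3; for control replicate 2 the steps did not settle on a depth. Differences are stimulated minus control on the log2(value + 1) scale ± SE, with p-values from limma adjusted over all genes by Benjamini and Hochberg. At an adjusted p under 0.05, 2905 genes were called, which is 13.4% of those tested, with 1873 higher and 1032 lower. Same-numbered libraries deviated together for replicates 1 and 2 (correlations of 0.747 and 0.741) but only weakly for replicate 3 (0.218). With the replicate number as a block limma called 5837 genes, or 26.8%. Each smooth muscle marker listed was present, with Acta2 at 69094 to 153164 in stimulated and 23470 to 37627 in control libraries. The cultures also held markers of other cell types: the 8 macrophage markers summed to 138172 to 204752 in stimulated and 91780 to 157554 in control libraries, most of it Lyz2. The 7 pericyte markers summed to 30576 to 34758 in stimulated and 18677 to 19852 in control libraries, with Cspg4 and Pdgfrb higher by the test, and the 10 smooth muscle markers to 86876 to 185927 in stimulated and 36739 to 56091 in control libraries, with 4 of 10 higher. Neither pair of ranges overlapped, but Acta2 made up most of the smooth muscle sum and Pdgfrb most of the pericyte sum. Pdgfrb had 23487, 23415 and 25045 normalized reads in stimulated and 15524, 13903 and 14897 in control libraries. The other 5 pericyte and 6 smooth muscle markers were not called, and the sums do not speak for them. The part of these cells in the FGF values was not tested. In such bulk samples, fewer cells of a type and less RNA per cell cannot be told apart.

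After BMP9 and BMP10 the FGF ligand genes moved in opposite directions. Fgf2 and Fgf18 rose, Fgf1 and Fgf10 fell, and Fgf7 did not pass the test. Among the receptor genes, Fgfrl1 rose, while Fgfr1, Fgfr2 and Fgfr3 did not pass. In all, 5 of the 9 genes were called, 3 higher and 2 lower, beside 13.4% of all genes tested, of which 8.61% were called higher and 4.75% lower. The groups did not overlap for 6 of the 9 genes, beside 33.2% of all genes. The genes were chosen with earlier results of these data known, so these shares were not tested against each other. The replicate block called 5 of the 9 as well, beside 26.8% of all genes.

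**Figure D1:**
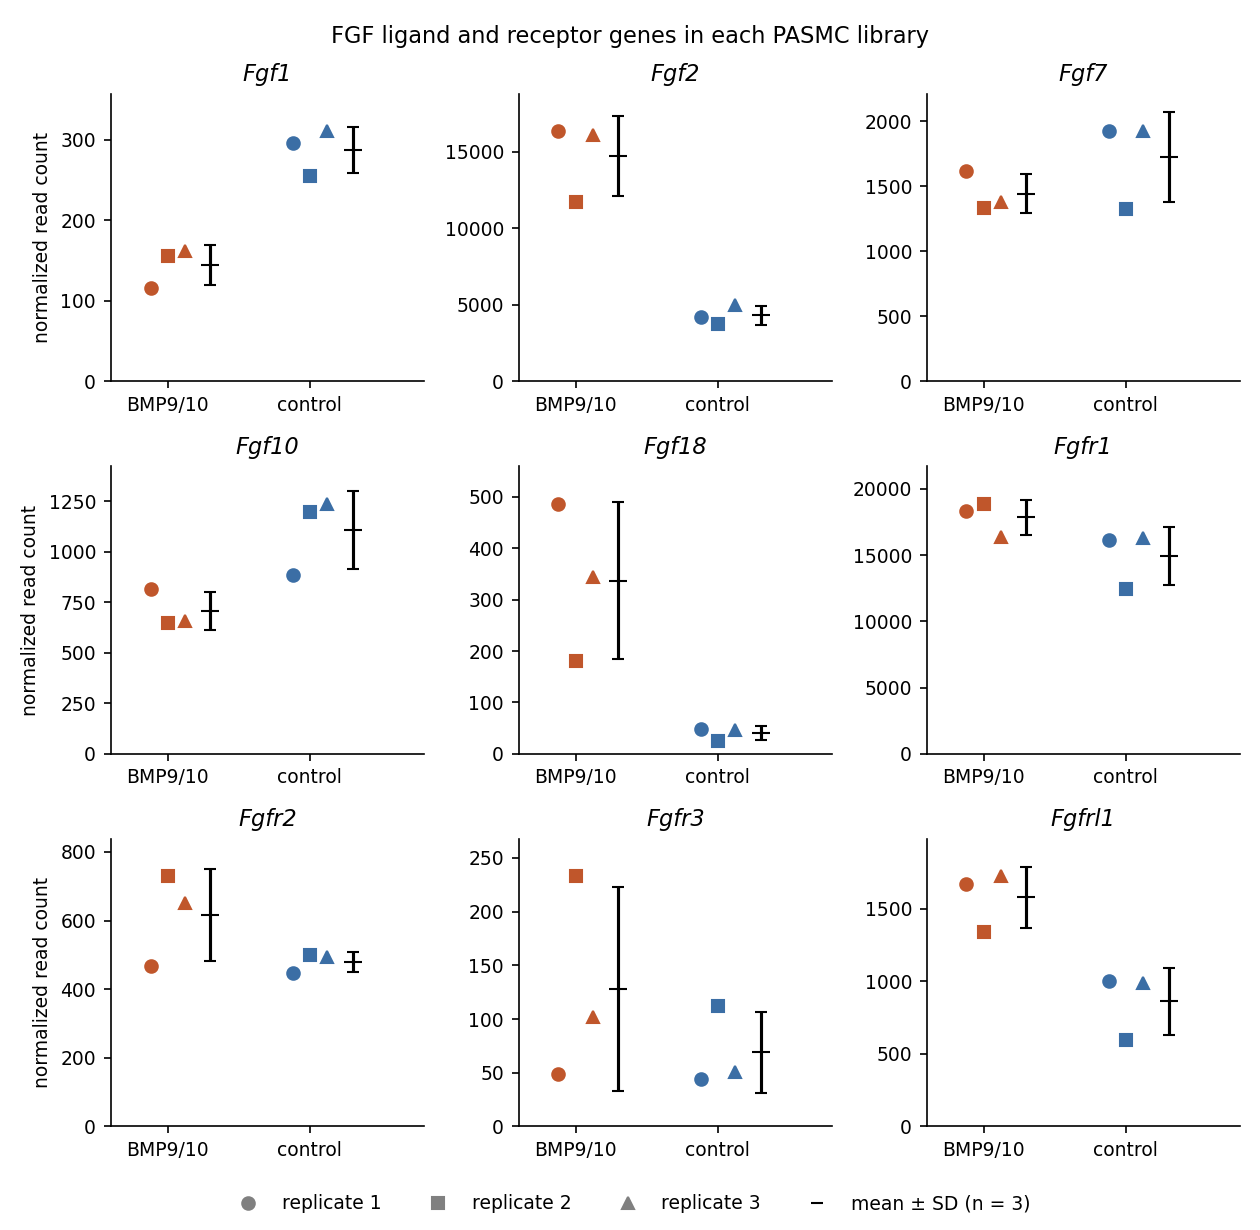
Normalized read count (vertical axis, from 0) of each of the 9 FGF ligand and receptor genes in the 3 BMP9/10-stimulated libraries (left) and the 3 control libraries (right), with the replicate number as the marker shape and the mean ± SD beside each group. The groups are apart for Fgf1, Fgf2, Fgf10, Fgf18, Fgfr1 and Fgfrl1, and overlap for Fgf7, Fgfr2 and Fgfr3.

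Fgf2 encodes basic FGF, a heparan sulfate-bound growth factor that leaves cells without a classical signal peptide. It lies on chromosome 3 from 37348346 to 37410108 (mm10, GENCODE M21, plus strand). It had 16358, 11724 and 16101 normalized reads in stimulated replicates 1, 2 and 3, against 4185, 3758 and 4956 in control replicates 1, 2 and 3. The lowest stimulated library was above the highest control library by more than the range within either group. Fgf2 rose by 1.77 ± 0.16 on the log2 scale, or 3.41-fold (limma adjusted p = 0.00135), and ranked 169th of 21743 genes by p-value. The differences within replicate numbers 1, 2 and 3 were 1.97, 1.64 and 1.70. The call was made in each of 18 alternative settings, with an adjusted p of at most 0.0153. Nudt6, which is transcribed from the opposite strand and shares 9.44% of the exonic bases of Fgf2, had 16, 11 and 29 normalized reads in stimulated and 32, 30 and 39 in control libraries, so its values were lower in each stimulated library and small beside those of Fgf2 (limma adjusted p = 0.172).

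Fgf18, a ligand known for its part in bone and lung development, lies on chromosome 11 from 33117430 to 33147400 on the minus strand. It had 487, 181 and 344 normalized reads in the stimulated libraries and 49, 26 and 47 in the control libraries. Both groups were lowest in replicate 2, and the groups did not overlap. Fgf18 rose by 2.96 ± 0.41, or 7.79-fold on the log2(value + 1) scale (limma adjusted p = 0.00599), which was the largest log2 change of the 9 genes. Its spread was wide, with a coefficient of variation of 45.4% in stimulated and 31.2% in control libraries, but the differences within replicate numbers were 3.29, 2.75 and 2.85. An estimated 46 reads stood behind control replicates 1 and 3 each, and an estimated 368, 159 and 589 behind stimulated replicates 1, 2 and 3. The call was made in each of 18 alternative settings, where the adjusted p reached 0.0438.

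Fgf1, acidic FGF, which binds every signaling FGF receptor, lies on chromosome 18 from 38838673 to 38929472 on the minus strand. It had 116, 156 and 162 normalized reads in stimulated libraries, against 296, 255 and 311 in control libraries. Every stimulated library was below every control library. Fgf1 fell by 1.00 ± 0.18 on the log2 scale, to a mean of 145 ± 25 in stimulated libraries against 287 ± 29 in control libraries (SD, n = 3 each; limma adjusted p = 0.0138). The call was lost without control replicate 1 (limma adjusted p = 0.0618) or control replicate 3 (0.0654), with log2 changes of -0.97 and -0.94.

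Fgf10, the mesenchymal signal for outgrowth of lung buds, lies on chromosome 13 from 118669791 to 118792115 on the plus strand. It had 815, 645 and 659 normalized reads in stimulated libraries and 887, 1199 and 1238 in control libraries. The highest stimulated library came close to the lowest control library, and both are replicate 1. Fgf10 fell by 0.64 ± 0.16 on the log2 scale (limma adjusted p = 0.0431), with differences within replicate numbers of -0.12, -0.89 and -0.91. The call was lost without stimulated replicate 2 (limma adjusted p = 0.105), stimulated replicate 3 (0.157), control replicate 2 (0.102), control replicate 3 (0.147) or both replicate 2 libraries (0.183). The log2 change was then between -0.52 and -0.60. Pdgfra, a fibroblast marker, moved the same way, at 4208, 5778 and 3983 in stimulated and 9120, 12719 and 12221 in control libraries. The 9 fibroblast markers, Pdgfra included, summed to 23059 to 28186 in stimulated and 28488 to 36897 in control libraries, and none was at 0. Pdgfra was the only 1 of the 9 called, and the other 8 did not pass the test. Their list's median log2 change was -0.29, but 0.03 without stimulated replicate 1 and 0.02 without control replicate 2. The part of fibroblasts in the fall of Fgf10 was not tested.

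Fgf7, keratinocyte growth factor, lies on chromosome 2 from 126034658 to 126091185 on the plus strand. It had 1618, 1333 and 1382 normalized reads in stimulated and 1925, 1323 and 1926 in control libraries. The groups overlapped through control replicate 2, the lowest of the 6. The log2 change was -0.24 ± 0.17 with a 95% interval from -0.63 to 0.15 (limma adjusted p = 0.40). Fgf7 passed only with the replicate block and equal library totals together (limma adjusted p = 0.0167), a scaling under which the median of all genes was -0.20.

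**Figure D2:**
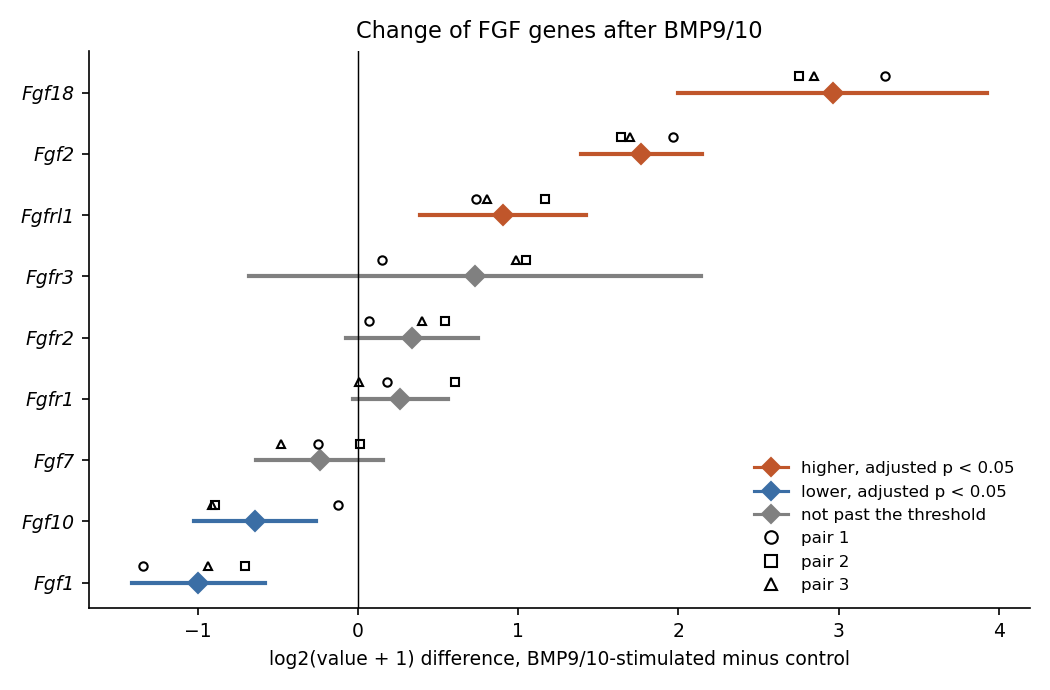
Log2(value + 1) difference, stimulated minus control (horizontal axis), for the 9 FGF genes. Diamonds and bars are the limma estimate and its 95% interval, coloured by whether the adjusted p was under 0.05, and open symbols are the differences within replicate numbers 1 to 3; Fgf18 and Fgf2 are farthest to the right and Fgf1 farthest to the left.

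Fgfr1 was the most abundant of the receptor genes. It lies on chromosome 8 from 25513654 to 25575718 on the plus strand. It had 18295, 18888 and 16395 normalized reads in stimulated and 16146, 12421 and 16285 in control libraries. The groups did not overlap, but stimulated replicate 3 and control replicate 3 were nearly equal. The log2 change was 0.26 ± 0.12 with a 95% interval from -0.03 to 0.56, and it did not pass the test (limma adjusted p = 0.216) in this or any of 18 alternative settings.

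Fgfrl1, the receptor-like gene without a kinase domain, lies on chromosome 5 from 108692382 to 108706924 on the plus strand. It had 1670, 1337 and 1723 normalized reads in stimulated and 1002, 594 and 987 in control libraries. Each stimulated library was above each control library, and replicate 2 was the lowest in both groups. Fgfrl1 rose by 0.90 ± 0.22 on the log2 scale, or 1.87-fold (limma adjusted p = 0.0382), with differences within replicate numbers of 0.74, 1.17 and 0.80. The call was lost with equal library totals (limma adjusted p = 0.0599), upper-quartile factors (0.0618) and limma-voom (0.0566). It was also lost without control replicate 1 (0.0671) or 3 (0.0753) or any of the stimulated replicates (0.0999, 0.0527 and 0.147 for replicates 1, 2 and 3); the log2 change stayed between 0.66 and 1.03 over the 18 settings.

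Fgfr2, whose epithelial splice form receives FGF7 and FGF10, lies on chromosome 7 on the minus strand. In GENCODE M21 its transcripts reach from 130162451 to 133123350 and share 3.04% of their exonic bases with Ctbp2 on the same strand, so a small part of its level is uncertain. It had 467, 729 and 651 normalized reads in stimulated and 446, 499 and 493 in control libraries. Stimulated replicate 1 lay within the control range, and the other 2 stimulated libraries lay above it. The log2 change was 0.34 ± 0.17 with a 95% interval from -0.07 to 0.75 (limma adjusted p = 0.256). Without stimulated replicate 1 it was 0.52 and passed (limma adjusted p = 0.0472).

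Fgfr3, a receptor known from cartilage growth, lies on chromosome 5 from 33721674 to 33737068 on the plus strand. It had 49, 233 and 102 normalized reads in stimulated and 44, 112 and 51 in control libraries. Replicate 2 was the highest library of each group, at 3.09 times the mean of the other 2 stimulated libraries and 2.36 times that of the other 2 control libraries. The log2 change was 0.73 ± 0.60 with a 95% interval from -0.68 to 2.14 (limma adjusted p = 0.48). The differences within replicate numbers were 0.15, 1.05 and 0.99, and with the replicate block the SE was 0.23 (limma adjusted p = 0.0567), so Fgfr3 did not pass in either fit. A transcript model on the opposite strand, G630022F23Rik, shares 13.9% of its exonic bases and is not analysed here.

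Replicate 2 stood apart from the other libraries for several of these genes. Fgf2, Fgf7, Fgf18 and Fgfrl1 were lowest in replicate 2 of both groups, and Fgfr2 and Fgfr3 were highest there. For Fgf18, replicate 2 was at 0.436 times the mean of the other stimulated libraries and 0.542 times that of the other control libraries. In the same libraries all 15 endothelial markers were highest, summing to 51509 in stimulated replicate 2 against 50246 in control replicate 2, and to between 12899 and 21203 in the other stimulated and between 14083 and 16045 in the other control libraries. The 12 epithelial markers, 8 of them highest in replicate 2 of both groups, summed to 3526, 38287 and 19318 in stimulated and 8967, 37963 and 9890 in control libraries. None of the 15 endothelial markers was under 89 in any library, and the lowest epithelial value was 6. Of the 15 endothelial markers 1 was called higher and none lower, beside 8.61% and 4.75% of all genes. No epithelial marker was called. The part of these cells in the FGF values was not tested. Without both replicate 2 libraries limma called 3 of the 9 genes higher and 1 lower, beside 1505 higher and 893 lower of 21602 genes tested. The call of Fgf10 was the one lost.

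Per kilobase of annotated exon, which allows levels of different genes to be set side by side, Fgf2 and Fgfr1 were the most abundant of the 9 in stimulated libraries. Fgf2 stood at 2170 ± 384 and Fgfr1 at 1810 ± 132 normalized reads per kilobase (SD, n = 3), and their ranges overlapped. They were followed by Fgfrl1 (567 ± 75.2), Fgf7 (445 ± 46.9), Fgf18 (284 ± 129) and Fgf10 (154 ± 20.5). The ranges of Fgfrl1 and Fgf7 overlapped, as did those of Fgf18 and Fgf10. The lowest Fgf7 library and the highest Fgf18 library were both at 410 after rounding. Fgfr2 (59.6 ± 13), Fgf1 (26.5 ± 4.58) and Fgfr3 (17.9 ± 13.2) were lower, and the ranges of Fgf1 and Fgfr3 overlapped. In control libraries Fgfr1 stood alone at the top at 1510 ± 222 per kilobase. Fgf2 (634 ± 89.5) and Fgf7 (531 ± 107) overlapped there, as did Fgfrl1 (309 ± 83.2) and Fgf10 (241 ± 41.8), and Fgf1 (52.6 ± 5.31) and Fgfr2 (46.4 ± 2.81). Fgf18 (34.3 ± 10.7) was next to last in control libraries, above Fgfr3 (9.64 ± 5.23). Parts of this order rested on the length used, as a comparison added after seeing the data shows. Per kilobase of the longest transcript, Fgfr1 stood above Fgf2 without overlap in stimulated libraries, at 3540 ± 258 and 2470 ± 436, and Fgfr2 stood above Fgf1 without overlap in control libraries, at 108 ± 6.55 and 72.1 ± 7.28. On that scale the stimulated ranges of Fgf10 and Fgfr2 overlapped, as did the control ranges of Fgf18 and Fgfr3. Those of Fgf7 and Fgf18 in stimulated libraries lay apart.

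The make-up of the ligand genes differed accordingly. Of the summed level per kilobase of the 5 ligand genes, Fgf2 made up 68.5%, 70.3% and 72.8% in stimulated and 41.2%, 42.9% and 43.3% in control libraries. Fgf7 made up 14.6% ± 1.86 in stimulated and 35.4% ± 4.01 in control libraries, and Fgf10 5.04% ± 0.654 in stimulated and 16.3% ± 3.68 in control libraries (SD, n = 3 each). Fgf18 made up 8.91% ± 2.73 in stimulated and 2.27% ± 0.534 in control libraries. These shares are tied to each other and restate the changes given above on a common scale.

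Among the 4 receptor genes, Fgfr1 held 74.0%, 76.6% and 70.4% of the summed level per kilobase in stimulated libraries, against 80.0%, 81.9% and 80.1% in control libraries. The difference of its mean share was -6.99 percentage points, and every stimulated library was below every control library (two-sided exact permutation test, p = 0.1, the smallest that 3 against 3 allows). With the longest transcript as the length the difference was -5.10 points. Fgfrl1 held 23.2% ± 3.58 of the sum in stimulated and 16.3% ± 2.04 in control libraries. Fgfr2 held 2.44% ± 0.551 and 2.53% ± 0.548, and Fgfr3 0.727% ± 0.526 and 0.555% ± 0.402, in stimulated and control libraries. The receptor shares are tied to each other as well. The level of Fgfr1 itself was not lower, at 1810 ± 132 per kilobase in stimulated and 1510 ± 222 in control libraries.

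**Figure D3:**
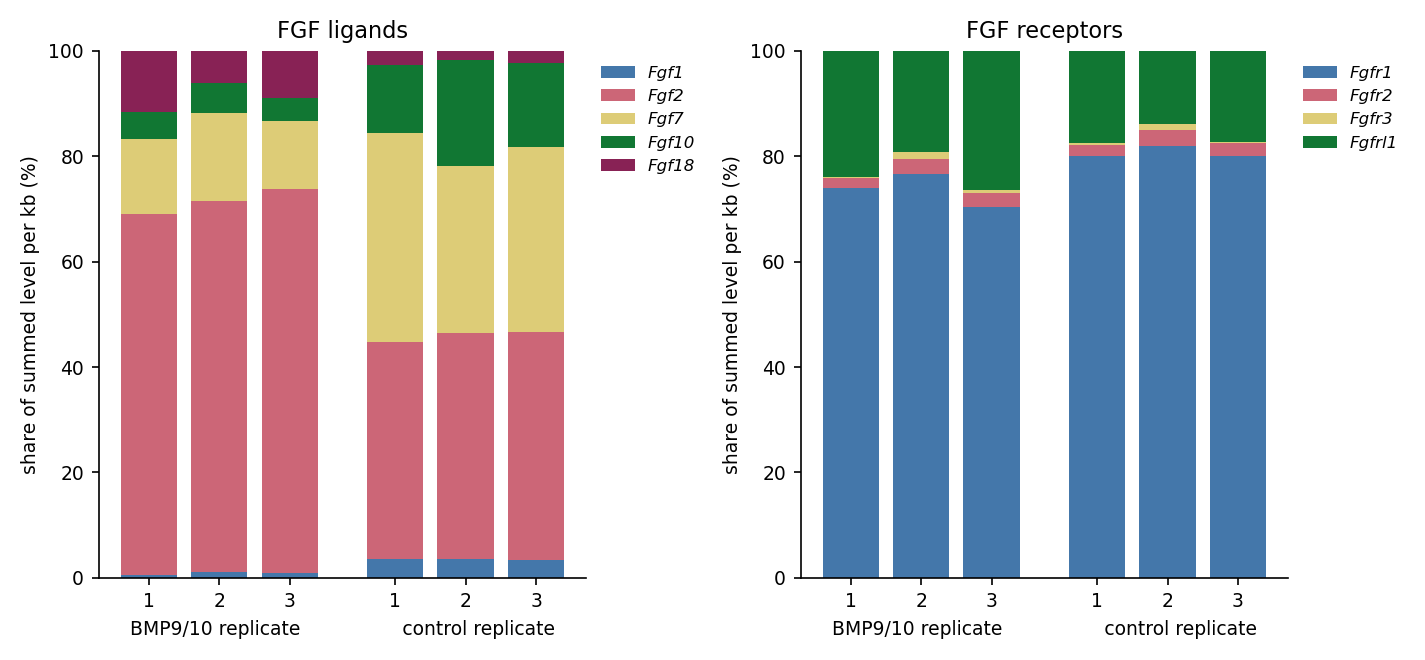
Share of the summed level per kilobase of exon (vertical axis, percent) held by each of the 5 FGF ligand genes (left panel) and each of the 4 receptor genes (right panel), per library, with the 3 stimulated libraries left of the 3 control libraries. Fgf2 fills 68.5% to 72.8% of the ligand bars in stimulated and 41.2% to 43.3% in control libraries.

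Of 14 further genes for secreted FGFs and for Fgfr4, 7 were among the rows. Fgf21, a metabolic hormone of the liver, was the only gene of these 7 called, beside 13.4% of all genes, and it rose with 29, 84 and 57 normalized reads in stimulated and 1, 8 and 2 in control libraries (3.81 ± 0.65, limma adjusted p = 0.0125). Its call was lost without stimulated replicate 3 (limma adjusted p = 0.0705) or control replicate 3 (0.0562). Its log2 change was 4.29 with a pseudocount of 0.1, 2.81 with 5, and 3.35 to 4.43 when 1 library was left out, and a filter of 1 CPM in at least 3 libraries removed it. The list's median log2 change was 0.21, beside -0.03 for all genes tested, but -0.22 without stimulated replicate 3 and 0 without control replicate 1.

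**Figure D4:**
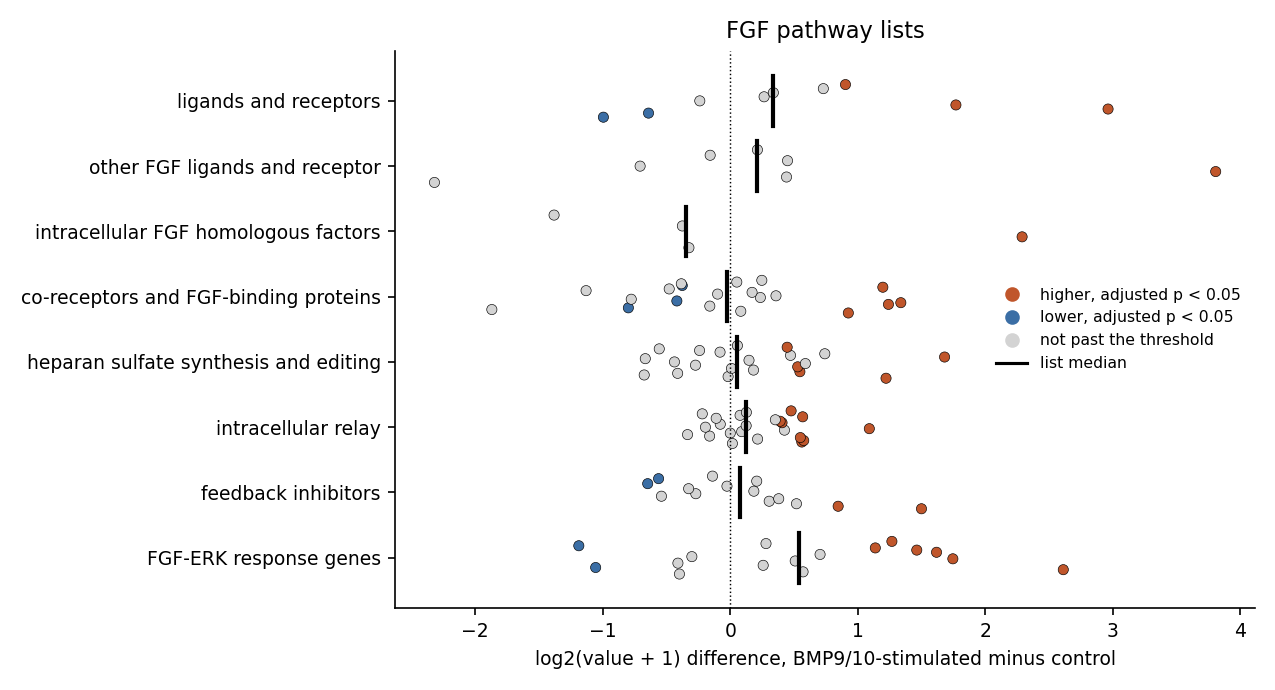
Log2(value + 1) difference, stimulated minus control (horizontal axis), of each tested gene in the lists of FGF pathway genes; each point is 1 gene, coloured by whether its adjusted p was under 0.05, and the vertical bar is the list's median. The median of the FGF-ERK response genes is 0.54 and that of the co-receptors and binding proteins is -0.02.

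Among co-receptors and FGF-binding proteins, 4 of 20 tested genes rose and 3 fell, with a median log2 change of -0.02, beside 8.61% higher, 4.75% lower and a median of -0.03 for all genes. With the replicate block 5 rose and 5 fell, beside 14.9% and 12% of all genes. When 1 library was left out 3 to 4 rose and 0 to 2 fell, with none lower without stimulated replicate 3 or control replicate 1. Over all genes those fits called 659 to 1583 higher and 258 to 801 lower. Without both replicate 2 libraries 4 rose and 1 fell, beside 1505 higher and 893 lower of 21602 genes. Ncam1, a cell adhesion molecule that can bind FGF receptors, rose by 1.20 ± 0.11 (limma adjusted p = 0.00135), with 4530, 3518 and 3939 normalized reads in stimulated and 1826, 1675 and 1706 in control libraries. Cd44, a hyaluronan receptor that can carry heparan sulfate, rose by 0.93 ± 0.09. The leucine-rich transmembrane genes Flrt2 and Flrt3, whose proteins can associate with FGF receptors, rose by 1.24 ± 0.19 and 1.34 ± 0.20, and Flrt2 was not called without stimulated replicate 3 (limma adjusted p = 0.0535). The 3 that fell, named after their values were seen, were the heparan sulfate proteoglycan genes Gpc1 (-0.42 ± 0.08, limma adjusted p = 0.0185) and Sdc1 (-0.38 ± 0.09, 0.0347) and the FGF-binding protein gene Fgfbp3 (-0.80 ± 0.21, 0.0494). Each was lost without both replicate 2 libraries (limma adjusted p = 0.054, 0.0799 and 0.0561). Gpc1 was also lost without stimulated replicate 3, control replicate 1 or control replicate 3 (limma adjusted p up to 0.0813). The call of Sdc1 was lost without any single library other than control replicate 3 (0.0599 to 0.13). That of Fgfbp3 was lost without any other than stimulated replicate 2 (0.0718 to 0.173) and with a pseudocount of 5 (0.0537). A gene on the opposite strand shares 18.9% of the exonic bases of Gpc1, so the level of Gpc1 is uncertain.

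Of 21 genes that build or edit heparan sulfate, the chains that hold FGF on its receptor, 5 rose and none fell, beside 8.61% higher and 4.75% lower among all genes. The median log2 change was 0.06, but -0.12 with equal library totals or limma-voom and -0.02 with upper-quartile factors, and it was also below 0 without stimulated replicate 1 (-0.03), control replicate 2 (-0.06) or both replicate 2 libraries (-0.04). The count moved with the libraries, with 2 higher without stimulated replicate 3, control replicate 1 or control replicate 3 and 3 without stimulated replicate 2. Of all genes 659, 838, 851 and 1358 were then higher, in the same order. The list's count also moved with the scaling. With equal library totals 2 rose and 1 fell, beside 1135 higher and 2265 lower of 21723 genes. With upper-quartile factors 2 rose and none fell, beside 1420 higher and 1352 lower. With the replicate block 5 rose and 2 fell, beside 14.9% and 12% of all genes. Hs6st1, a 6-O-sulfotransferase, had 2674, 3630 and 3117 normalized reads in stimulated and 1064, 950 and 907 in control libraries and rose by 1.68 ± 0.13 (limma adjusted p = 0.000896). Ext1, which elongates the chain, rose by 1.22 ± 0.12 (limma adjusted p = 0.00168). The 6-O-endosulfatase gene Sulf1 (0.45 ± 0.09) and Extl3, which starts the chain (0.55 ± 0.12), rose as deposited and were not called with equal library totals (limma adjusted p = 0.0802 and 0.0741) or upper-quartile factors (0.0521 and 0.0705). Both calls were also lost without stimulated replicate 1 or 3 or control replicate 1 or 3 (limma adjusted p between 0.0521 and 0.116), and that of Extl3 without stimulated replicate 2 (0.065). Hs2st1, a 2-O-sulfotransferase gene named after its value was seen, rose by 0.53 ± 0.14 (limma adjusted p = 0.0454), a call lost with equal library totals (0.0933), upper-quartile factors (0.0758), without both replicate 2 libraries (0.162) and without any library other than stimulated replicate 1 (0.0898 to 0.152).

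In the relay from receptor to ERK and PI3 kinase, 8 of 23 genes rose and none fell, beside 8.61% higher and 4.75% lower among all genes. The median log2 change was 0.13, but -0.05 with equal library totals or limma-voom. With equal library totals 5 rose and 2 fell, beside 1135 higher and 2265 lower of 21723 genes. The count was 4 higher without stimulated replicate 3 or control replicate 1, where 659 and 838 of all genes were higher. It was 5 higher without stimulated replicate 2 or control replicate 3, where 1358 and 851 of all genes were higher. Without both replicate 2 libraries 5 rose and 1 fell, beside 1505 higher and 893 lower of 21602 genes. Map2k1, which encodes the ERK-activating kinase MEK1, had 6523, 8095 and 7093 normalized reads in stimulated and 3477, 3150 and 3543 in control libraries and rose by 1.09 ± 0.10 (limma adjusted p = 0.00151). Ptpn11, the phosphatase SHP2, rose by 0.57 ± 0.08, the ubiquitin ligase gene Cbl by 0.58 ± 0.08 and Braf, a kinase above MEK, by 0.56 ± 0.08. Frs2, which encodes the docking adaptor of FGF receptors and was named after its value was seen, rose by 0.55 (limma adjusted p = 0.0129), a call lost without stimulated replicate 3 (0.0626), control replicate 1 (0.0596) or both replicate 2 libraries (0.0555).

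Feedback inhibitors of the pathway went both ways, with 2 of 14 higher and 2 lower, beside 8.61% higher and 4.75% lower among all genes. The median log2 change was 0.08, but -0.09 with equal library totals or without both replicate 2 libraries. It was -0.11 without stimulated replicate 2 and -0.03 without control replicate 2. With equal library totals 2 were higher and 3 lower, beside 1135 higher and 2265 lower of 21723 genes. The MAP kinase phosphatase genes Dusp4 (1.50 ± 0.11, limma adjusted p = 0.000776) and Dusp5 (0.85 ± 0.11) rose. An antisense gene covers 22.1% of the exonic bases of Dusp5, so its level is uncertain. Spry2, a Sprouty inhibitor of receptor signaling, had 484, 602 and 481 normalized reads in stimulated and 826, 712 and 769 in control libraries and fell by 0.56 ± 0.13 (limma adjusted p = 0.0295). Spred3, a Sprouty-related inhibitor of RAS signaling, fell by 0.65 ± 0.15 (limma adjusted p = 0.0352). Both calls were lost without stimulated replicate 1 or 3 or control replicate 1 or 3 (limma adjusted p between 0.0528 and 0.129), and that of Spred3 also without stimulated replicate 2 (0.0873).

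Of 16 genes known to answer FGF and ERK signaling, 6 rose and 2 fell, beside 8.61% higher and 4.75% lower among all genes, with a median log2 change of 0.54. With the replicate block 9 rose and 4 fell, beside 14.9% and 12% of all genes. With equal library totals 6 rose and 3 fell, beside 1135 higher and 2265 lower of 21723 genes. The transcription factor gene Egr2 had 1714, 2036 and 2324 normalized reads in stimulated and 280, 441 and 286 in control libraries and rose by 2.61 ± 0.20 (limma adjusted p = 0.000896). Junb and Fosb, subunits of the AP-1 factor, rose by 1.46 ± 0.16 and 1.75 ± 0.21, and Ier3, an early response gene, by 1.62 ± 0.21. The 2 that fell, named after their values were seen, were Etv1, an ETS factor gene (-1.06, limma adjusted p = 0.023), and Phlda1 (-1.19, limma adjusted p = 0.00464), of whose exonic bases 33.0% are covered by a gene on the opposite strand. The call of Etv1 was lost without stimulated replicate 1 (limma adjusted p = 0.0556), stimulated replicate 3 (0.095), control replicate 2 (0.0546) or control replicate 3 (0.0878). Many of these genes also answer signals other than FGF.

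By the likeness of log2(value + 1) over the 6 libraries, the protein-coding genes closest to Fgf2 were Cybc1, Haus7 and Nbeal1 (Pearson r = 0.9992, 0.9984 and 0.9973). Those closest to Fgf18 were Dgke, Fam162a and Tma16 (r = 0.997, 0.9959 and 0.9957), and those closest to Fgf1 were Cgrrf1, Kcnq5 and Phf13 (r = 0.997, 0.9962 and 0.9958). The 6 points fall into the 2 treatment groups and share their library scaling, so many genes are alike on this measure: of 12278 genes compared, 729 had an r above 0.95 with Fgf2, 467 with Fgf18 and 129 with Fgf1. The likeness is of shape and not of size, since Cybc1 differed by 0.24 on the log2 scale where Fgf2 differed by 1.77.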

How the data were processed

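Per the labels' protocols, a stranded total RNA kit was used for library preparation. Per the submitters' processing notes, builds hg38, GRCh38 and mm10 appear beside the tools DESeq2 1.18.1, featureCounts 1.6.3, STAR 2.6.1d and Trimmomatic 0.38. Which annotation release and strand setting served for counting is not given in the sources used here. The values deposited by the authors are a score for each gene in each library. For 5 of 6 libraries, regular steps in the values show read counts scaled by 1 factor per library and rounded. Depth was estimated from those steps. It was kept where a wider search gave the same factor and that factor was not too near 1 to resolve (5 of 6 libraries). Whole reads were not recovered for every library, so no count model was used. The main test was limma 3.58.1 in R 4.3.3, fitted to log2(value + 1) with a mean-variance trend, for 21743 genes with a mean of at least 1 (42 left out), with treatment as the only term and 4 residual degrees of freedom. A fold change on this scale understates changes of low genes. It was tested on simulated data. Identifiers of 21747 of 21785 rows matched GENCODE M21, whose exons gave lengths and overlaps. The genes and lists were chosen with earlier results of these data known. Genes named are the 9 FGF genes, up to 4 called genes with the smallest p per pathway list, overlapping antisense genes and the 3 genes most alike to each of the 3 FGF genes with the smallest p. Fgfbp3, Sdc1, Gpc1, Hs2st1, Frs2, Etv1, Phlda1, Fgf5, Fgf14, Fgf16 and the cell type markers Acta2, Lyz2, Pdgfra, Cspg4 and Pdgfrb were named outside this rule, after their values were seen. Over 13185 genes, deviations from group means correlated by 0.747, 0.741 and 0.218 between libraries of the same replicate number, each above 0.1, although stimulated replicate 1 and control replicate 3 correlated by 0.287. Fits with a block on replicate number are therefore given as alternatives, named where used; every other value is unpaired, and the labels do not state what the numbers mean. Alternatives were other scalings, pseudocounts, filters, limma-voom, the replicate block and leaving out libraries.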

Additional observations from a re-analysis of the deposited data

How the results depend on the processing

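None of the 9 FGF genes changed direction in any of the 18 alternative settings, and Fgf2 and Fgf18 were called in each. With the replicate number as a block 5837 genes were called in place of 2905, and 6958 with equal library totals as well. The block changed no call among the 9 genes. Leaving out 1 library gave 917 to 2384 called genes. Of the 9 FGF genes, 2 to 3 were then higher and 0 to 2 lower (0 without control replicate 3). Without both replicate 2 libraries 2398 genes were called, and 1 of the 9 was lower. The difference in the share of Fgfr1 among the receptor genes was -5.10 points with the longest transcript as the length and ranged from -8.47 to -5.38 points when 1 library was left out, which was added after seeing the data. Equal library totals moved the median of all genes to -0.20 and the share of higher calls to 33.4%, against 64.5% as deposited; upper-quartile factors gave -0.11 and 51.2%. The causes of these shifts were not tested. The SE of Fgfr3 was 0.60, and 0.23 with the block.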

Other observations

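The intracellular FGF homologous factors are family members that are not secreted and are known to bind voltage-gated sodium channels. They held 1 called gene among 4, beside 13.4% of all genes. The list's median log2 change was -0.35, beside -0.03 for all genes tested. It was 0.02 without stimulated replicate 2 and 0.98 for the 2 genes left by a filter of 1 CPM in at least 3 libraries. Fgf12 had 152, 152 and 133 normalized reads in stimulated libraries and 30, 27 and 30 in control libraries, with little spread within either group. It rose by 2.29 ± 0.18 on the log2 scale (limma adjusted p = 0.00097) and was called in each of the 18 alternative settings. Fgf14 had 29, 0 and 27 normalized reads in stimulated and 60, 3 and 60 in control libraries, so replicate 2 was near 0 in both groups (limma adjusted p = 0.625; 0.0324 with the replicate block).

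Of the secreted ligands outside the main group of genes, 2 are given here, and Fgf14 above, by choice after their values were seen. Fgf16 had 1, 2 and 8 normalized reads in stimulated and 13, 31 and 14 in control libraries, without overlap between groups (limma adjusted p = 0.0608; 0.0302 with the replicate block). Fgf5 had 91, 487 and 227 in stimulated and 146, 199 and 136 in control libraries and was highest in replicate 2 of both groups, as the endothelial markers were.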
